A study of Mus musculus with 6 samples.

Results

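The genes described here encode 9 surface proteins by which long-term haematopoietic stem cells and multipotent progenitors are told apart within the LSK gate: Slamf1, Cd48, Cd34, Flt3, Kit, Procr, Esam, Tek and Cd9. They were listed by symbol, with earlier results of these data known, and all 9 of them were found among the 24063 gene symbols of the count tables. LSK cells are bone marrow cells that lack lineage markers and carry Sca-1 and c-Kit. They were profiled by RNA sequencing in 3 Asxl2-/- libraries and 3 control libraries, the latter labelled wild type. All 6 libraries came from C57BL/6 mice, carried the Mx1-Cre transgene by title and were made after pIpC injection, so the controls shared both Cre and pIpC. In the study's methods the deleted animals are Mx1-cre Asxl2 fl/fl, in which Cre removes the floxed exon once pIpC, a synthetic double-stranded RNA, has induced the interferon-responsive Mx1 promoter. That promoter is not restricted to stem cells. The labels give neither age nor sex. The study's methods call the libraries of a group biological replicates, without saying whether each was 1 animal or a pool, and p-values measure the spread between these libraries.

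As background, the LSK gate holds a small number of self-renewing stem cells among many multipotent progenitors, and the proportions are usually read from surface proteins. CD150 (Slamf1), EPCR (Procr), ESAM, TIE2 (Tek) and CD9 mark the long-term stem cell end of the gate, whereas CD48, CD34 and FLT3 appear as cells move towards multipotent and lymphoid-primed progenitors. The SLAM code, CD150 positive and CD48 negative, is a standard definition of the long-term stem cell in the mouse. c-Kit, the receptor for stem cell factor, is part of the gate itself.

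Values of single libraries are given below in the order of replicates 1, 2 and 3 of a group. Of the 6 files, 3 gave a count per transcript (Asxl2-/- replicates 1 and 3 and control replicate 2) and 3 gave a count per exon (Asxl2-/- replicate 2 and control replicates 1 and 3). Totals were 25528540 to 29136012 counts in the former and 53147729 to 55032075 in the latter, where a read across a splice junction can add to several exons, so the kind of file entered every test as a covariate and each gene is also given within each kind. The targeted gene did not check the labels: Asxl2 reads over the whole transcript differed by 0.11 on the log2 scale (edgeR adjusted p = 0.469, SE 0.0954), and the floxed exon was not examined here. Xist, the RNA that silences an X chromosome in females, had 49540 to 66689 counts in the Asxl2-/- libraries and 590 to 3194 in the controls, so genotype cannot be told apart from the sex of the animals in any difference below. The gate's own genes were present. Kit, Ly6a (Sca-1) and Ptprc (CD45) summed to 716 to 743 CPM (counts scaled to a common library size) in the Asxl2-/- libraries and 734 to 820 CPM in the controls, but Ly6a alone was 40.5, 260 and 148 CPM in control replicates 1, 2 and 3, against 52.6, 69.1 and 57.6 CPM in the Asxl2-/- libraries. Control replicate 1 thus lay apart from the other controls at Ly6a, and results are given without it where that changes a call.

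Slamf1, which encodes the stem cell marker CD150, rose in Asxl2-/- LSK cells, and its progenitor-side counterpart Cd48 was at nearly the same level in both groups. The median log2 fold change over the 5 stem-side genes was 0.83, against 0.066 over Cd48, Cd34 and Flt3 and 0.000523 over the 14145 genes tested. The progenitor-side median is the value of Cd48 and lies between genes of opposite sign. Flt3 was at -0.34, while Cd34 at 0.42 was close to the stem-side Procr at 0.43. All 9 genes passed the filter on low counts, with 86 to 24198 counts in a library. Slamf1 was the only one past an adjusted p of 0.05, where 2.34% of all genes tested were called, 2.04% as raised and 0.304% as lowered. Slamf1, Esam, Tek and Cd9 had an unadjusted p under 0.05 and were higher, as were 15.0% of all genes, while 12.6% had such a p and were lower. Slamf1, Esam, Tek, Cd9 and Cd34 were higher in all 4 comparisons of an Asxl2-/- with a control library of the same file kind, a pattern that 25.4% of all genes showed, with 23.3% lower in all 4. The share of the 9 genes past the adjusted threshold rests on 1 gene, and in bulk RNA fewer cells of a type and less RNA per cell cannot be told apart.

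**Figure D1:**
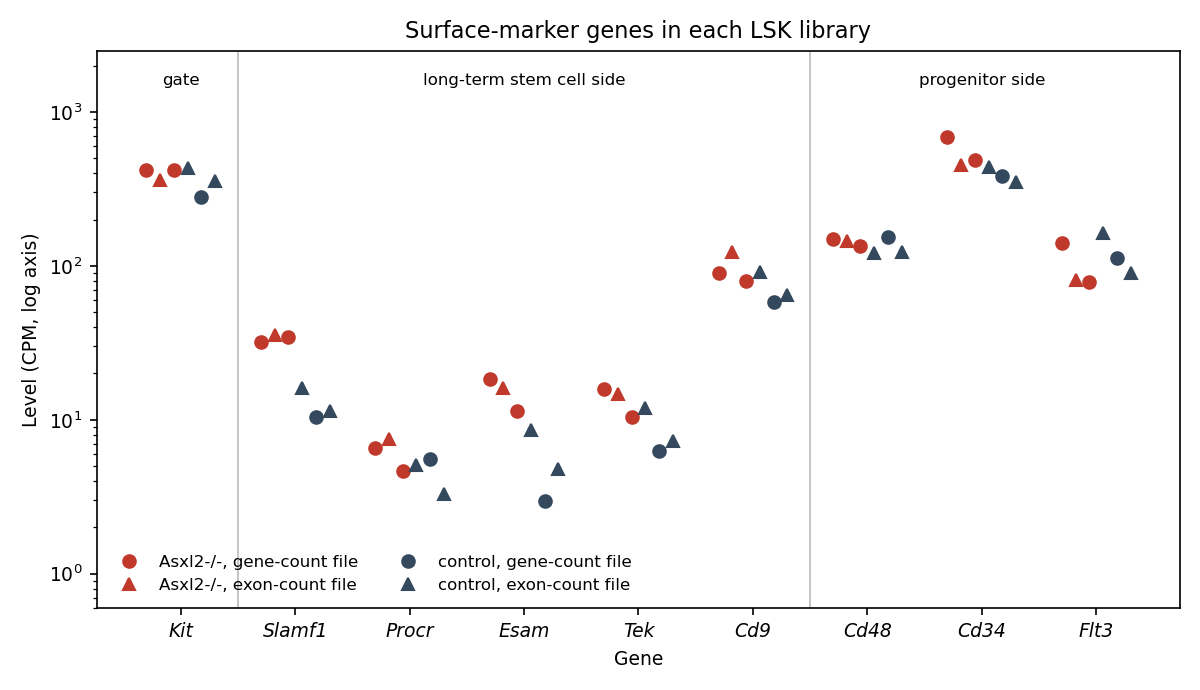
Level of each of the 9 genes in each of the 6 LSK libraries, in CPM on a log axis, with 1 point per library, Asxl2-/- in red and control in dark blue, circles for gene-count files and triangles for exon-count files. Slamf1 is separate between the groups, at 32.2 to 35.7 CPM in Asxl2-/- against 10.4 to 16.0 CPM in the controls. Esam and Cd34 are separate as well, whereas Procr, Tek, Cd9, Cd48, Kit and Flt3 overlap.

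Levels between genes were compared per kilobase of transcript, within a kind of file. Cd34 was the most abundant, at 199 ± 59.5 CPM per kilobase (SD, n = 3 gene-count files), followed by Cd48 at 128 ± 9.18. Kit at 72.1 and Cd9 at 63.8 CPM per kilobase overlapped across libraries, and their order was the reverse in the exon-count files, at 73.8 and 78.1. Flt3 came next at 30.3 CPM per kilobase, apart from its neighbours. Slamf1 at 9.56, Esam at 5.88, Procr at 3.72 and Tek at 2.32 CPM per kilobase formed the low end, each overlapping the next. These means pool 2 Asxl2-/- libraries with 1 control, and in that control, replicate 2, Procr at 3.70 was above Esam at 1.61 and close to Slamf1 at 3.86. The ranks of the other 7 genes were the same in both kinds of file. The progenitor-side RNAs were thus all above the rarer stem-side ones, with Cd9 as the stem-side gene that reached their level.

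Within the SLAM pair, Slamf1 passed the threshold and Cd48 did not. Slamf1 and Cd48 encode related immunoglobulin-type receptors and lie next to each other on chromosome 1 of the mm10 build. Cd48 (NM_007649, 4 exons, chr1:171682055-171705257) ends 61874 bases before Slamf1 begins (NM_013730, 7 exons, chr1:171767132-171801184). Their promoters are shown because the neighbours differed in response. The 250 bases before each annotated start, from RefSeq on GRCm38.p6, are given 5′ to 3′ on the plus strand, on which both genes lie, for Slamf1 at chr1:171766882-171767131 and for Cd48 at chr1:171681742-171681991. The start RefSeq gives for Cd48 lies before the one in the count files, so its window ends short of the latter, and positions are counted from the RefSeq start. For Slamf1 both starts are the same. Capitals mark the letters CAGGAA on either strand, bound by ETS factors, and TGTGGT, bound by RUNX factors.
Slamf1: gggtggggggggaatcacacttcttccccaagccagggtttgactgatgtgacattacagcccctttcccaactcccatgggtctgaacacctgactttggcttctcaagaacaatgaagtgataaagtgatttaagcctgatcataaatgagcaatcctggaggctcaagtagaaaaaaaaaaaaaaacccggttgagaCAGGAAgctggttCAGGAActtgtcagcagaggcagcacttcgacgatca
Cd48: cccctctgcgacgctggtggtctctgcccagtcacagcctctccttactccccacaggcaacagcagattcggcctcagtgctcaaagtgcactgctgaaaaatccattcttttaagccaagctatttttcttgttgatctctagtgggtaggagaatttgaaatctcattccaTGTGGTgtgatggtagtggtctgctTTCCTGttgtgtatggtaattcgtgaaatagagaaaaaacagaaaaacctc
The Slamf1 window held CAGGAA at positions -50 and -37 from the start. The Cd48 window held it at -51, read on the opposite strand, with TGTGGT at -76. A further match to CAGGAA lay past the printed bases of Cd48, at position 27 after the start. Of 32851 promoter windows of 300 bases, which include the 50 bases after each start, 30.6% held CAGGAA and 16.8% TGTGGT, so these matches are a description and not sites of binding.

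Slamf1 encodes CD150, a self-ligand receptor of the SLAM family. The Asxl2-/- libraries held 908, 1899 and 978 Slamf1 counts and the controls 836, 299 and 543. Scaled to library size these were 32.2, 35.7 and 34.5 CPM against 16.0, 10.4 and 11.5 CPM. The Asxl2-/- libraries lay close together and every one was above every control, of which replicate 1 was the highest. Non-overlap of this kind, with the Asxl2-/- libraries higher, was seen in 15.4% of all genes, and with them lower in 9.36%. On the log2 CPM scale with file kind removed, the level was 5.13 ± 0.095 in Asxl2-/- and 3.60 ± 0.26 in controls (SD, n = 3 each). Slamf1 was raised 2.88-fold (95% interval 2.16 to 3.83), or 1.52 in log2 units (SE 0.170), and edgeR gave an adjusted p of 0.0196. By file kind it was 1.68 among gene-count files and 1.39 among exon-count files. By p-value it was number 62 among the genes tested. The direction held without each library in turn, but the edgeR adjusted p rose to 0.0851 without Asxl2-/- replicate 1, 0.0574 without Asxl2-/- replicate 3, 0.0616 without control replicate 2 and 0.101 without control replicate 3.

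Cd48, the ligand of the related receptor CD244 and the marker that stem cells lack, did not move with its neighbour. Its level was 150, 144 and 134 CPM in Asxl2-/- cells against 121, 154 and 123 CPM in the controls. Control replicate 2 was the highest of all 6 libraries and the groups overlapped. The log2 fold change was 0.066 (95% interval -0.20 to 0.33, edgeR adjusted p = 0.724), which leaves room for a fall or a rise well below that of Slamf1. Its sign differed between the kinds of file, at -0.12 in gene-count and 0.24 in exon-count files, and it was -0.11 without Asxl2-/- replicate 2.

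Within each library, the ratio of Slamf1 to Cd48 CPM does not depend on library scaling. It was 0.215, 0.247 and 0.257 in the Asxl2-/- libraries against 0.133, 0.0675 and 0.0933 in the controls. The lowest Asxl2-/- value was above the highest control value. The ratio of Slamf1 to Flt3 was 0.229, 0.443 and 0.437 against 0.0987, 0.0925 and 0.127, and that of Slamf1 to Kit was 0.0767, 0.0993 and 0.0820 against 0.0372, 0.0371 and 0.0321. Both were separate between the groups as well. Within a kind of file, each of these ratios was higher in Asxl2-/- in 4 of 4 comparisons. These ratios share Slamf1 and are not independent of one another. They were not tested, and how often ratios of other genes separate the groups was not measured.

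**Figure D2:**
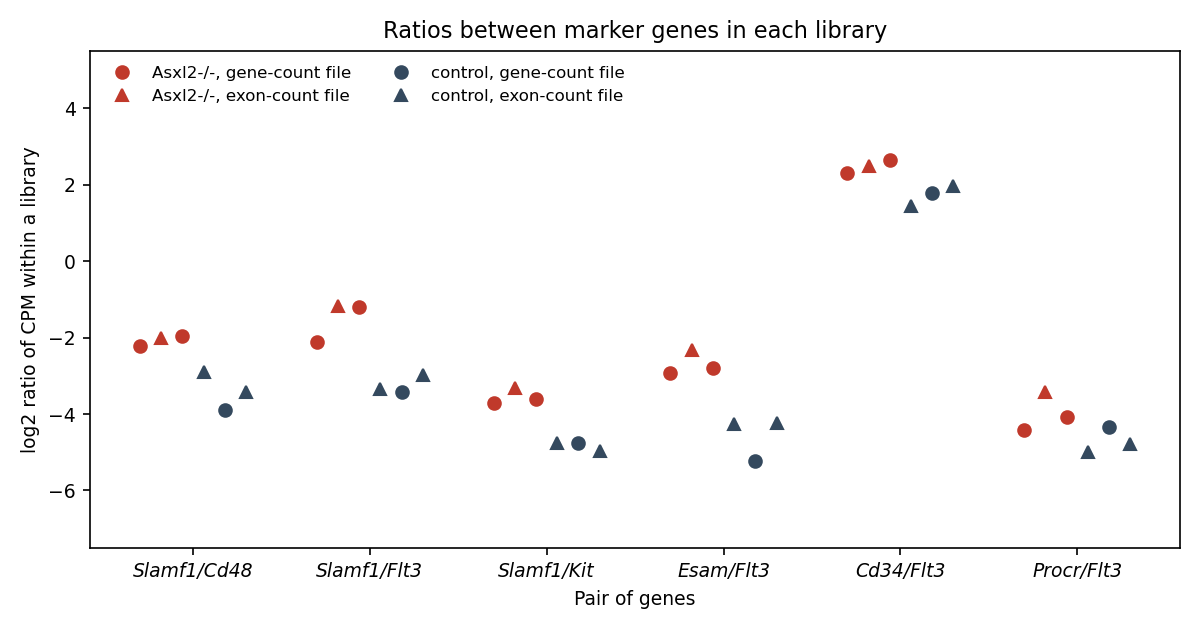
Ratio of the CPM of 2 marker genes within each of the 6 libraries, on a log2 axis, with 1 point per library, Asxl2-/- in red and control in dark blue, circles for gene-count and triangles for exon-count files. The ratio of Slamf1 to Cd48 runs from 0.215 to 0.257 in Asxl2-/- and from 0.0675 to 0.133 in controls, and Procr over Flt3 is the ratio shown in which the groups overlap.

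The other SLAM genes around this pair had fold changes of either sign, none of them past the edgeR threshold. Cd84, next to Slamf1, had a log2 fold change of 0.91 (edgeR adjusted p = 0.0515) and Slamf6, the one after it, 1.18 (edgeR adjusted p = 0.0890). On the other side of Cd48, Slamf7 was at -0.94 (edgeR adjusted p = 0.213), Ly9 at -0.45 (edgeR adjusted p = 0.171) and Cd244 at 0.29 (edgeR adjusted p = 0.471). F11r, a junctional adhesion molecule further along the same stretch, rose by 1.66 (SE 0.262, edgeR adjusted p = 0.0401). Of 9 SLAM family members and adaptors tested besides Slamf1 and Cd48, 0 passed the edgeR threshold in either direction and the median log2 fold change was 0.094. DESeq2 called Slamf6, Slamf8 and Cd84, 2 of them raised and 1 lowered. DESeq2 called far more genes than edgeR, 2245 of 18768 in all, and its calls here and below are to be read beside that share.

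**Figure D3:**
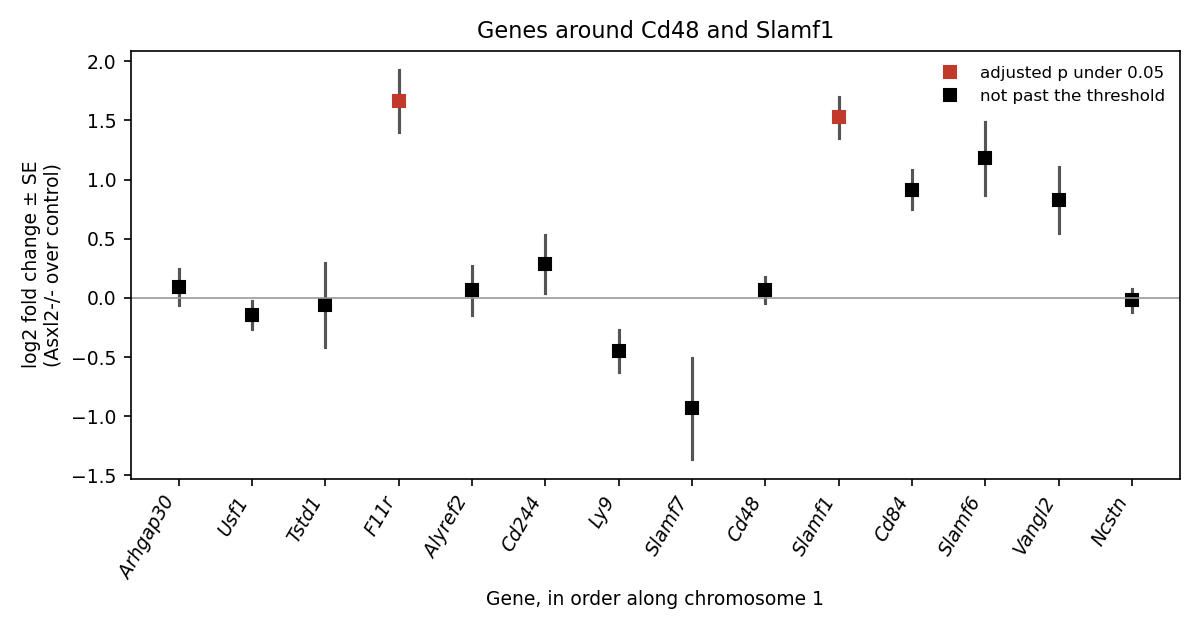
log2 fold change (Asxl2-/- over control, squares) with its SE (bars) for the tested genes around Cd48 and Slamf1, in their order along chromosome 1, in red where the edgeR adjusted p was under 0.05. Slamf1 at 1.52 and F11r at 1.66 are the genes past the threshold, and Cd48, beside Slamf1, is at 0.066.

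Esam (NM_027102, 7 exons, chr9:37528089-37538319) encodes an adhesion molecule of endothelial cells, platelets and stem cells. Asxl2-/- libraries held 517, 859 and 323 Esam counts and controls 445, 86 and 228, or 18.3, 16.1 and 11.4 CPM against 8.54, 2.99 and 4.81 CPM. All Asxl2-/- libraries were above all controls, although control replicate 1 lay far above the other controls. It had the largest log2 fold change of the 9 genes, 1.76 (SE 0.384, 95% interval 0.83 to 2.70), with an edgeR adjusted p of 0.0689 that did not pass. Gene-count files alone gave 2.26, exon-count files alone 1.33. The edgeR adjusted p was 0.0394 without control replicate 1 and 0.0477 without Asxl2-/- replicate 2, and 0.117 to 0.220 without any other library. Relative to Flt3, Esam stood at 0.130, 0.200 and 0.144 in Asxl2-/- and at 0.0526, 0.0266 and 0.0533 in controls, again without overlap.

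Tek (NM_013690, 23 exons, chr4:94739289-94874976) encodes TIE2, the receptor through which angiopoietins act on stem and endothelial cells. Its level was 15.9, 14.6 and 10.5 CPM in Asxl2-/- cells against 11.9, 6.29 and 7.23 CPM in the controls. Control replicate 1 lay above Asxl2-/- replicate 3, so the groups overlapped, but within a file kind each Asxl2-/- library was higher. Tek had a log2 fold change of 0.83 (SE 0.286, 95% interval 0.14 to 1.53, edgeR adjusted p = 0.135). Its ligand gene Angpt1 was at 1.29 (edgeR adjusted p = 0.0685) and its sister receptor Tie1 at 1.09 (edgeR adjusted p = 0.0837). Of 4 Tie and angiopoietin genes tested besides Tek, 0 passed with edgeR and 2, Tie1 and Angpt1, with DESeq2, and their median log2 fold change was 0.75.

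Cd9 (NM_007657, 8 exons, chr6:125460266-125494755) encodes a tetraspanin of platelets and stem cells. Asxl2-/- libraries were at 89.4, 124 and 80.3 CPM, the controls at 90.9, 58.5 and 64.5 CPM. Control replicate 1 was above 2 of the Asxl2-/- libraries in these values, which are not adjusted for the file kind. Within a kind of file each Asxl2-/- library was above each control, and the log2 fold change was 0.61 (SE 0.149, 95% interval 0.24 to 0.97, edgeR adjusted p = 0.0811), with 0.53 in gene-count and 0.69 in exon-count files. Without control replicate 1 the edgeR adjusted p was 0.0443, in a fit that called 1312 genes in all, against 331 with all 6 libraries. The edgeR adjusted p of Cd9 was 0.149 to 0.242 without any other library. Of 21 tetraspanins and partners tested besides Cd9, Cd63 rose past the threshold (log2 fold change 0.98, SE 0.153, edgeR adjusted p = 0.0401), a late endosomal and granule tetraspanin, and the median was 0.11.

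Procr (NM_011171, 4 exons, chr2:155751217-155755478) encodes EPCR, the receptor of protein C, and was among the lowest of the 9 genes. Asxl2-/- libraries were at 6.56, 7.48 and 4.65 CPM, the controls at 5.08, 5.56 and 3.29 CPM. The groups overlapped, and the difference came from the exon-count files, with a log2 fold change of 0.86 there and -0.0076 among gene-count files. Over all libraries it was 0.43 (SE 0.293, 95% interval -0.28 to 1.15, edgeR adjusted p = 0.370). The interval includes both a small fall and the change seen for Tek. Of 6 protein C pathway genes tested besides Procr, 0 passed with edgeR. The thrombin receptor gene F2rl3 had the smallest edgeR adjusted p, 0.0779, with a log2 fold change of 0.89, and passed with DESeq2.

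**Figure D4:**
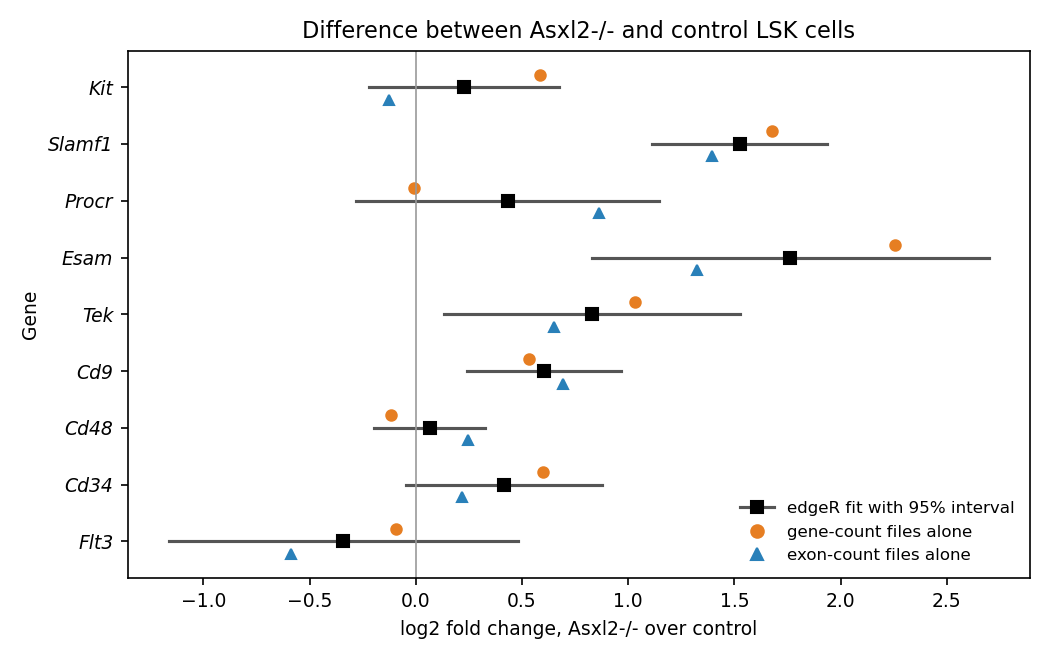
log2 fold change of each gene, Asxl2-/- over control, from the edgeR fit over 6 libraries (squares) with its 95% interval (bars), and the values in gene-count files alone (circles) and exon-count files alone (triangles). Slamf1 at 1.52 and Esam at 1.76 lie farthest to the right, and the intervals of Kit, Procr, Cd48, Cd34 and Flt3 include 0.

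On the progenitor side, Cd34 (NM_001111059, 8 exons, chr1:194938821-194961292) encodes a sialomucin that mouse long-term stem cells largely lack and multipotent progenitors carry. The level of Cd34 was 691, 455 and 490 CPM in Asxl2-/- cells against 437, 384 and 349 CPM in the controls. Asxl2-/- replicate 1 was far above the rest, and the lowest Asxl2-/- library was just above the highest control. The log2 fold change was 0.42 (SE 0.189, 95% interval -0.045 to 0.88, edgeR adjusted p = 0.212). Its sign was that of the stem-side genes. The 4 CD34 family and partner genes tested had a median of -0.20, and 0 of them passed with either edgeR or DESeq2.

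Flt3 (NM_010229, 24 exons, minus strand, chr5:147330742-147400489) encodes the receptor tyrosine kinase whose level rises on lymphoid-primed progenitors, and it was the one gene of the 9 with a negative fold change. The level of Flt3 was 141, 80.6 and 78.9 CPM in Asxl2-/- cells against 162, 112 and 90.1 CPM in the controls. Asxl2-/- replicate 1 was above control replicates 2 and 3, so the groups overlapped. The log2 fold change was -0.34 (SE 0.338, 95% interval -1.16 to 0.48, edgeR adjusted p = 0.540), with -0.091 among gene-count and -0.59 among exon-count files. Its SD within a group, 0.44 in Asxl2-/- and 0.45 in controls on the log2 CPM scale, was larger than the difference. Cd34 relative to Flt3 was 4.91, 5.64 and 6.21 in Asxl2-/- and 2.69, 3.42 and 3.87 in controls, without overlap. This ratio was not tested, and neither gene passed the threshold alone. How often other pairs of genes separate in this way was not measured.

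Kit (NM_001122733, 21 exons, chr5:75574987-75656721) was selected for at the protein level by the sort. The level of Kit was 420, 359 and 421 CPM in Asxl2-/- cells against 431, 280 and 356 CPM in the controls. The groups overlapped, with control replicate 1 highest and control replicate 2 lowest. Its log2 fold change was 0.23 (SE 0.184, 95% interval -0.22 to 0.67, edgeR adjusted p = 0.453), and its sign depended on control replicate 2, without which it was -0.13. Of 22 ligands, related receptors and signalling proteins of Kit and Flt3, 0 passed with edgeR, with a median of 0.082. The smallest edgeR adjusted p-values were those of Cbl, a ubiquitin ligase that ends receptor signalling, at 0.0583 (log2 fold change 0.47), and Socs2, a feedback inhibitor of cytokine signalling, at 0.0761 (1.31). DESeq2 called both.

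The exon-count files show whether a difference ran along the whole transcript. There Asxl2-/- replicate 2 was compared with control replicates 1 and 3 exon by exon, with no test, since neighbouring exons share reads. Slamf1 was higher than both controls in 7 of 7 exons, by 0.87 to 1.33 against control replicate 1 and 1.38 to 1.92 against control replicate 3 on the log2 scale of exon CPM. Esam was higher in 7 of 7 exons, Cd9 in 8 of 8 and Procr in 4 of 4. Tek was higher in 17 of the 22 exons with enough counts and lower in 1. The stem-side differences were thus spread over the transcripts and not carried by 1 exon. Cd48 was also higher in 4 of 4 exons, but by 0.17 to 0.37 and 0.20 to 0.26. Cd34 was higher than both controls in 6 of 8 exons, at -0.020 to 0.10 against control replicate 1 and 0.33 to 0.41 against control replicate 3. Kit was higher than both controls in 0 of 21 exons and lower than both in 8. Flt3 was lower than both in 21 of 24 exons, by far more against control replicate 1 (-1.26 to -0.68) than against control replicate 3 (-0.44 to 0.11).

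**Figure D5:**
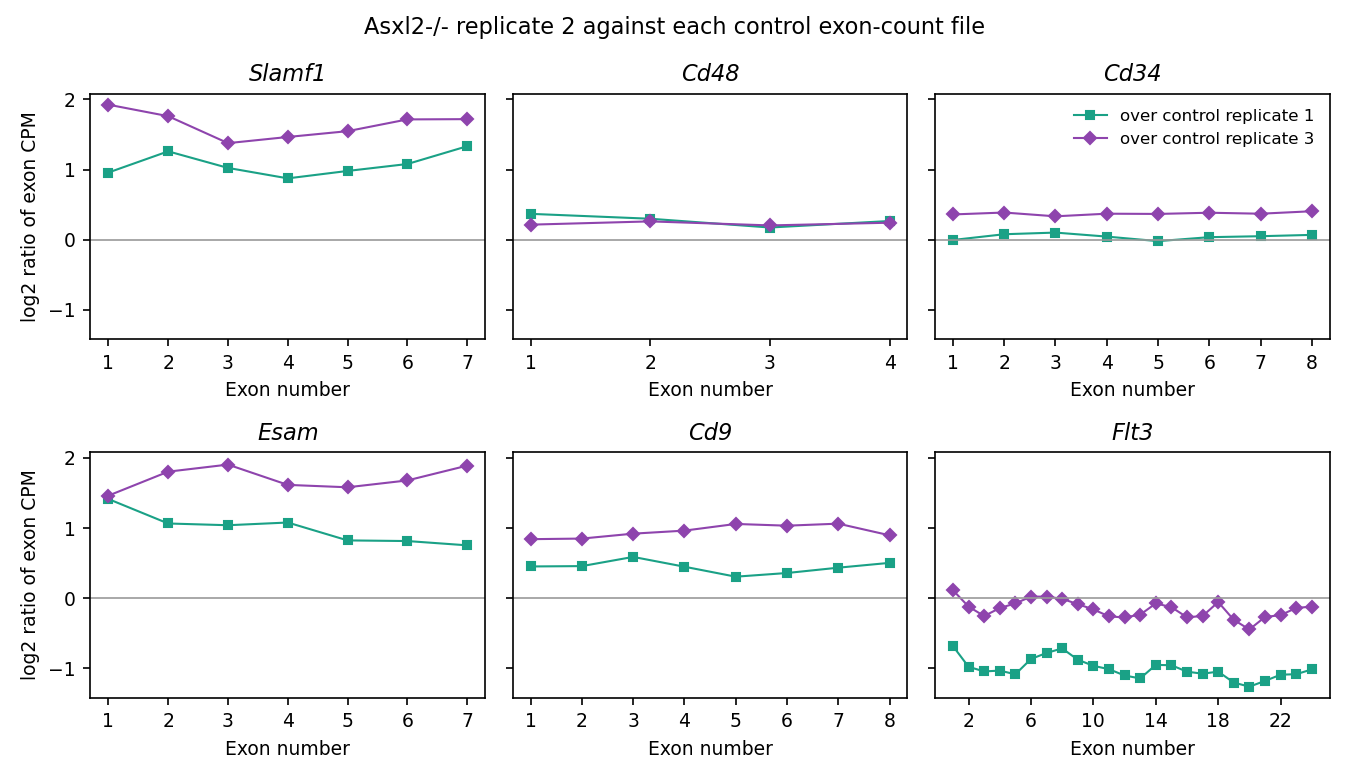
log2 ratio of exon CPM in Asxl2-/- replicate 2 over control replicate 1 (squares) and over control replicate 3 (diamonds), for each exon of 6 marker genes. Exons are numbered from the 5′ end, except those of Esam, which are numbered by position on the chromosome. The line of Slamf1 lies above 0 at every exon (0.87 to 1.92), that of Cd48 lies at 0.17 to 0.37, those of Cd34 lie at -0.020 to 0.10 over control replicate 1 and 0.33 to 0.41 over control replicate 3, and Flt3 lies mostly below 0.

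Isoforms could be separated in part for 3 of the genes, since more than 1 transcript was listed. The Kit exon that exists with and without 12 additional bases had 797, 868 and 639 counts in its longer form and 788, 857 and 630 in its shorter form in Asxl2-/- replicate 2 and control replicates 1 and 3. These counts overlap almost fully, and the 2 forms could not be told apart from them. The last exon of Cd34 had 9873, 9214 and 6638 counts in the longer and 9390, 8830 and 6352 in the shorter of its forms, which differ in where it begins and so in the cytoplasmic tail. Isoform use could thus not be measured in either gene. The Tek exon of 153 bases that one transcript skips had 26, 32 and 9 counts.

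Promoter windows of RefSeq were found for 8 of the 9 genes. CAGGAA was present in those of Slamf1, Cd34, Cd48 and Tek and not in those of Cd9, Flt3, Kit and Procr. The letters AGATAA, bound by GATA factors, were found in the window of Tek at position 37 after the start, compared with 11.2% of all windows. Genes with CAGGAA included Slamf1, which passed the threshold, and Cd48, which was close to its control level.

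Across the 6 libraries, after removal of file kind, the stem-side genes other than Procr followed one another. Pearson's r of log2 CPM was 0.96 for Slamf1 with Esam, 0.94 for Slamf1 with Cd9 and 0.97 for Esam with Tek. Cd34 lay with them, at 0.97 with Tek. Flt3 did not, at -0.30 with Slamf1, and Kit was at -0.50 with Cd48. These values describe 6 libraries that differ by genotype and share their scaling, and removal of the file kind leaves few free values. Among 10503 genes that reached 100 counts in each library, those most like Slamf1 were Zfp52, Xist and Akap12, with r of 0.9988 or more. Those most like Esam were Ist1, H1fx and Neil1, those most like Cd34 were Cd27, Tmem8 and Gm16897, and those most like Flt3 were Ivns1abp, Itsn1 and Basp1.

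Other genes known from the same populations were read beside the surface markers. Of 15 other genes of long-term stem cells, 3 rose past the threshold and 0 fell, where 2.04% of all genes rose and 0.304% fell. Among them were Vwf, a platelet adhesion protein of megakaryocyte-primed stem cells (log2 fold change 2.17, edgeR adjusted p = 0.0190), and Ctnnal1, a catenin-like protein used as a stem cell reporter (1.71, edgeR adjusted p = 0.0319). The median of the 15 genes was 1.17 and their summed level was 487 to 725 CPM in Asxl2-/- and 233 to 418 CPM in controls. Hlf at 1.01 (edgeR adjusted p = 0.203) and Mecom at 0.60 (edgeR adjusted p = 0.266), transcription factors of long-term stem cells, did not pass. Of 15 other genes of multipotent and lymphoid-primed progenitors, Rag1, a recombinase of lymphocyte precursors, rose (2.24, edgeR adjusted p = 0.0268) and the median was 0.20. Dntt, which adds nucleotides at receptor gene joints, was at 0.18 and Satb1, a chromatin organiser of lymphoid-primed cells, at -0.44. Both lists were chosen with results of these data known.

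Several of the 9 genes are also used by other blood and vessel cells, whose markers moved with them in part. With edgeR, 2.04% of all genes tested rose past the threshold and 0.304% fell. Of 11 megakaryocyte genes tested, 5 rose, with summed levels of 379 to 918 CPM in Asxl2-/- and 201 to 411 CPM in controls. The defining megakaryocyte genes Pf4, Ppbp, Gp9 and Gp1ba had counts in every library, with 920 to 7793 for Pf4 in Asxl2-/- and 380 to 1965 in controls. The megakaryocyte list and the stem cell list have genes in common, Vwf among them. Of 12 endothelial genes tested, 0 rose past the edgeR threshold, with sums of 201 to 272 CPM against 161 to 235 CPM. DESeq2 called 4 endothelial genes as raised, where it called 2245 of 18768 genes in all. Of the 12 endothelial genes 7 were higher in all 4 comparisons within a file kind, as were 25.4% of all genes. The median log2 fold change of the 12 was 0.81. Emcn, Sox18 and Robo4 had log2 fold changes of 1.66, 2.47 and 2.04, and edgeR put their adjusted p at 0.0740, 0.0506 and 0.0841. The defining endothelial genes ranged widely in counts over the 6 libraries, from 0 to 3 for Cldn5, 5 to 35 for Stab2, 6 to 31 for Cdh5, 12 to 60 for Kdr and 21 to 46 for Nos3 up to 158 to 625 for Plvap. Of 12 B-lymphoid genes, 8 rose, with sums of 202 to 211 CPM against 51.3 to 76.1 CPM and no overlap, and Cd79a, a signalling chain of the B cell receptor, had 647, 1199 and 543 counts in Asxl2-/- against 404, 162 and 252 in controls. Of 8 mast cell and basophil genes, which Kit would accompany, 0 passed, at 143 to 354 CPM against 222 to 355 CPM. Of 7 dendritic genes, which Flt3 would accompany, 0 passed with edgeR and 2 with DESeq2, at 113 to 164 CPM against 158 to 300 CPM. Their median log2 fold change was -0.90, with 4 lower and 1 higher in all 4 comparisons. Of 12 erythroid genes 0 passed with edgeR and 5, all lowered, with DESeq2, and their median log2 fold change was -0.97. In all 4 comparisons 6 of the erythroid genes were lower, as were 23.3% of all genes. The sums of the erythroid genes were 827 to 1591 CPM against 2211 to 3370 CPM, without overlap. The part of these cell types in the levels of Slamf1, Esam, Tek, Cd9, Kit and Flt3 was not tested.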

How the data were processed

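The authors deposited raw read counts per transcript (3 gene-count files) or per exon (3 exon-count files), not normalised. The submitters' processing notes name STAR, featureCounts, DESeq2 and the mm10 build, without versions. Each gene was represented by the transcript with the longest summed exon length, and exon counts were summed over it. Tests used edgeR 4.0.16 (R 4.3.3) with quasi-likelihood fits, TMM scaling, the filterByExpr filter and terms for file kind and group (3 residual degrees of freedom), two-sided, with Benjamini-Hochberg adjustment over 14145 genes. The procedure was tested on simulated data. The SE was derived from the F statistic. CPM are counts scaled to a common effective library size, and log2 CPM used a prior count of 2 with file kind removed by limma 3.58.1, which makes SDs somewhat too small. Alternatives included DESeq2 1.42.0, other scalings, filters and covariates and leaving out each library. No pair of libraries was closer than sampling noise, with a chi-square per degree of freedom of at least 24.1. With unstranded libraries, reads of overlapping antisense genes cannot be told apart. Promoters came from the RefSeq table of GRCm38.p6. The 9 genes, the related gene lists and the rule for naming genes (the 9 genes, the gate's genes, list members past the threshold and those of smallest p in each list) were chosen with earlier results of these data known. Further named genes were picked after their values were seen. Results that need certain withheld genes are not reported here.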

Additional observations from a re-analysis of the deposited data

How the results depend on the processing

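The log2 fold change of Slamf1 was 1.38 to 1.68 in 21 fits, of which 17 passed the threshold. The 9 genes held 1 call in the reported fit and 4 with DESeq2 (Slamf1, Esam, Tek and Cd9), and 0 to 3 without 1 library. Calls among all genes were 331 of 14145, 2245 of 18768 with DESeq2, 161 with library size only, and 9 to 1312 without 1 library. Without 1 library, Kit ran from -0.13 (without control replicate 2) to 0.59 and Cd48 from -0.11 (without Asxl2-/- replicate 2) to 0.25, so both could change sign. The cause was not tested. Scaling by library size only moved the median of all genes by 0.098 on the log2 scale. Every library held at least 86 counts of each of the 9 genes, and with 3 residual degrees of freedom intervals were wide, from 0.14 to 1.53 for Tek.

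Deviations from group means correlated at 0.294, -0.0077 and -0.0028 for numbers 1, 2 and 3, so the replicate numbers were not taken to pair the libraries. With file kind removed they correlated at 0.635, 1 and 0.388. The value of 1 follows from the removal, since replicate 2 is the only library of its file kind in each group, and the others are affected by it too. With the replicate block beside the file kind, 1 residual degree of freedom is left. That fit called 6 of the 9 genes (Flt3 lowered, the others raised) and 5179 of 14145 genes in all. Its calls by list follow, with the number lowered in brackets. They were 5 (2) of 6 gate-excluded lineage, 1 (1) of 3 gate, 3 (1) of 11 T and NK and 6 (5) of 7 dendritic genes. Also called were 7 (1) of 12 endothelial, 7 (7) of 12 erythroid, 10 (0) of 12 B-lymphoid and 4 (3) of 8 mast and basophil genes. Next came 11 (0) of 11 megakaryocyte, 4 (0) of 6 neural, 8 (2) of 11 neutrophil and monocyte and 7 (0) of 8 stromal genes. The other stem cell list had 12 (1) of 15 and the other progenitor list 10 (3) of 15. Among relatives they were 1 (1) of 4 CD34 family, 4 (1) of 6 junctional adhesion and 4 (1) of 6 protein C genes. Kit and Flt3 signalling had 7 (2) of 22 and SLAM 6 (3) of 9. Tetraspanins had 11 (4) of 21, and Tie and angiopoietin genes 2 (0) of 4.

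With DESeq2, 2245 of 18768 genes were called in all, and its calls by list follow in the same form. They were 4 (2) of 6 gate-excluded lineage, 1 (1) of 12 T and NK and 2 (2) of 8 dendritic genes. Also called were 4 (0) of 16 endothelial, 5 (5) of 12 erythroid, 9 (0) of 12 B-lymphoid and 9 (0) of 12 megakaryocyte genes. Next came 5 (0) of 11 neutrophil and monocyte, 9 (0) of 15 other stem cell and 3 (0) of 15 other progenitor genes. Among relatives they were 3 (1) of 7 junctional adhesion, 2 (0) of 22 Kit and Flt3 signalling and 1 (0) of 7 protein C genes. SLAM had 3 (1) of 11, tetraspanins 6 (3) of 21, and Tie and angiopoietin genes 2 (0) of 6. Without a filter on low counts, 1 endothelial gene (Sox18) was called.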

Other observations

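Of 6 junctional adhesion genes tested besides Esam, F11r rose past the threshold, and Jam3, a partner of such molecules on platelets and endothelium, had a log2 fold change of 1.63 (edgeR adjusted p = 0.0927). The Asxl2-/- libraries had 125, 217 and 88 Jam3 counts and the controls 111, 31 and 38. Amica1, an adhesion molecule of leukocytes, was at -1.27 (edgeR adjusted p = 0.162). The median of the 6 genes was 0.94.

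Among the remaining lists, 2 of 11 neutrophil and monocyte genes rose past the threshold. Of 11 T and NK genes, 8 stromal genes and 6 neural genes, 0 passed with edgeR. The summed stromal level was 147 to 321 CPM in Asxl2-/- and 48.2 to 204 CPM in controls.

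Neo1, a guidance receptor named among genes of long-term stem cells, had 872 counts in Asxl2-/- replicate 2, against 19 and 14 in the other Asxl2-/- libraries and 9 to 34 in the controls, so its log2 fold change of 3.59 (edgeR adjusted p = 0.0761) rests on that library.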
